A study of Homo sapiens with 7 samples.

Results

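Broad normoxia domains of 5-hydroxymethylcytosine (5-hmC) were chosen by their width at 0 h, as the peaks of the 0 h list on chromosomes 1 to 22 whose end minus start was 2500 bp or more. They numbered 1605 of the 280942 autosomal peaks of that list, or 0.571%, and held 5.45 Mb of the 145 Mb those peaks covered. The domains were followed through hypoxia in SK-N-BE(2), an established MYCN-amplified neuroblastoma line kept at 1% oxygen for 6, 12, 24, 48 or 72 h, against the same line at 21% oxygen (0 h). All samples were labelled WT and grown in RPMI with 10% FBS. Each time point was 1 captured library with its own peak list, which leaves no replicate error, and times are compared through 2 libraries each. An input at 21% oxygen was not analysed here.

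5-hmC is made from 5-methylcytosine by the TET enzymes, dioxygenases that use molecular oxygen, iron and 2-oxoglutarate. The base is an intermediate of active demethylation and also a lasting mark, known for its abundance in neural tissue and for its place in the bodies of transcribed genes and at enhancers. In the capture used here a glucosyltransferase tags 5-hmC, biotin is attached to the tag and streptavidin retains the fragments, so a wide peak is a stretch along which neighbouring fragments were enriched with no gap long enough to divide it. A peak list from a cell population cannot tell fewer cells carrying 5-hmC at a site from less 5-hmC per cell.

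The autosomal lists held 288234, 289681, 307172, 331251 and 346595 peaks at 6, 12, 24, 48 and 72 h. Peaks of 2500 bp or more numbered 1905, 1768, 1846, 1950 and 2142 at those times, against 1605 at 0 h, and made up 0.661%, 0.610%, 0.601%, 0.589% and 0.618% of the hypoxia lists. Another 4 peaks of this width at 0 h lay on other chromosomes or unplaced sequence and were not used. The narrowest peak of a list had between 226 and 242 bp, and neighbouring peaks were never closer than 51 bp in any of the 6 lists. Gaps shorter than that may have been merged when peaks were made, so a break or a split below means a gap of at least 51 bp, and a peak may hold shorter ones. Whether such a setting was used is not given in the sources used here. Read depth is unknown. The lists give no height, so width and coverage below say nothing of how strongly a stretch was enriched.

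The domains had a median width of 3077 bp, with quartiles at 2724 and 3711 bp, against a median of 396 bp for all autosomal 0 h peaks. Widths under 3000 bp were held by 728 domains, from 3000 to under 4000 bp by 585, from 4000 to under 6000 bp by 246 and of 6000 bp or more by 46. The widest domain measured 14759 bp. These widths selected the members. A stretch picked because it was wide at 0 h will on average look narrower in any other list, so the values against 0 h that follow are descriptions, and no test was made of them.

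No domain lost its 5-hmC peak in hypoxia. All 1605 overlapped a peak in each of the 5 hypoxia lists (by at least 1 bp), and 0 of 1605 absent domains allows a share of up to 0.187% by the limit of 3 counts, or 0.230% by the Clopper-Pearson interval, for counting error only. Of all autosomal 0 h peaks, 13.9%, 14%, 11.7%, 10.4% and 10.1% had no overlapping peak at 6, 12, 24, 48 and 72 h. Of the 20317 peaks from 1000 to under 2500 bp, only 3, 1, 1, 3 and 4 had none, so such persistence was not particular to the domains. The domains were also covered nearly end to end. Peaks covered 96.5%, 96.0%, 96.2%, 95.8% and 96.0% of their summed length, in the same order. For the peaks from 1000 to under 2500 bp this share was 93.1%, 92.4%, 93.0%, 93.1% and 93.3%. The median domain was covered over 98.0%, 97.5%, 97.6%, 97.5% and 97.8% of its length. The least covered domain of each list kept 65.8%, 63.8%, 65.8%, 50.7% and 62.2%. At 72 h, 1118 domains (69.7%, 95% Clopper-Pearson interval 67.3 to 71.9%) kept at least 95% of their length, 417 were covered completely and 31 kept under 80%. Of all 280942 autosomal 0 h peaks, 158828 (56.5%) kept at least 95%, 118241 were covered completely and 59910 kept under 80%.

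Each domain was then assigned a fate at each time. A domain was called split where it overlapped 2 or more peaks, and wider or narrower where it overlapped a single peak wider by 25% or more, or one with at most 80% of its width. The remaining domains with a single peak were called about equal. A split domain could thus overlap a peak wider than itself, and such domains are not among the wider ones. About equal domains numbered 891, 869, 862, 861 and 878 at 6, 12, 24, 48 and 72 h. Split domains numbered 523, 585, 574, 577 and 514, where 2.33%, 2.58%, 2.37%, 2.2% and 2.04% of all autosomal 0 h peaks were split. Wider domains numbered 188, 145, 164, 162 and 208, against 21.9%, 19.6%, 24.3%, 29.7% and 35.9% of all autosomal 0 h peaks. Narrower domains numbered 3, 6, 5, 5 and 5, against 8.08%, 9.12%, 7.4%, 6.75% and 5.69%. The rule used the 0 h width, which also limits how far a proportion can move, so nothing is read from these shares against the background.

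**Figure D1:**
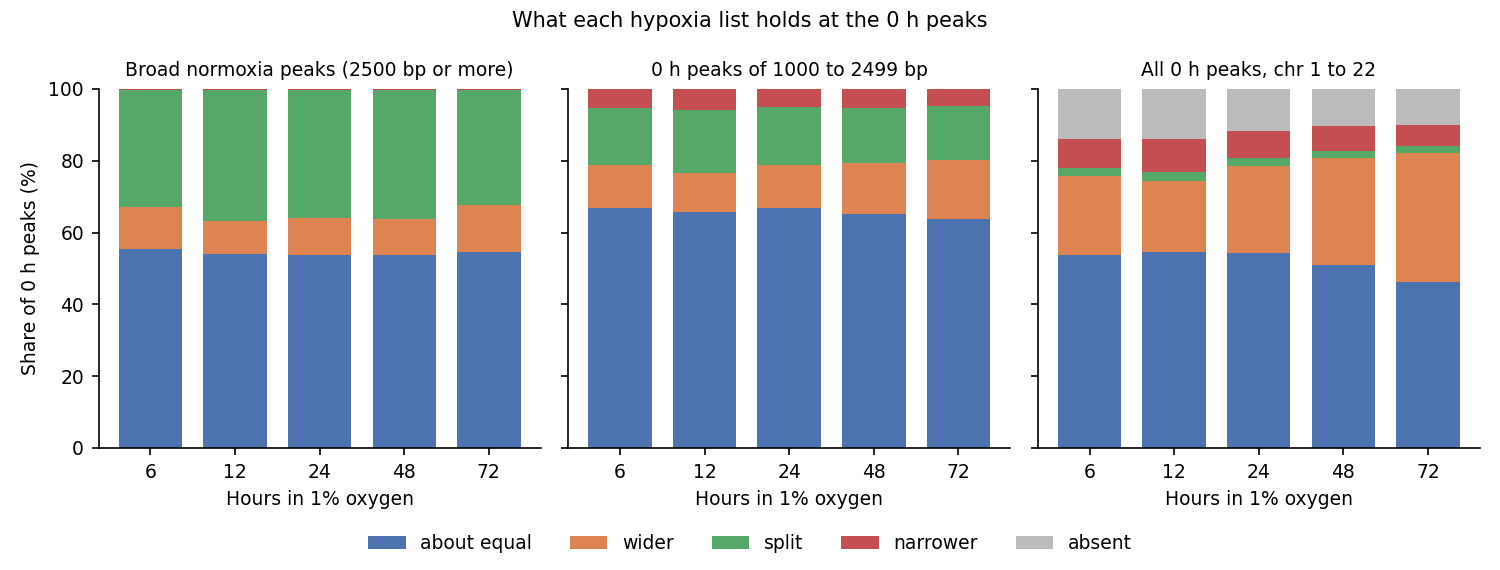
Share of 0 h peaks (%, stacked bars) that were about equal, wider, split, narrower or absent in the list of each hypoxia time (hours in 1% oxygen), for the 1605 broad peaks, for the 20317 peaks from 1000 to under 2500 bp and for all 280942 autosomal 0 h peaks. Among the broad peaks 514 to 585 are split, 145 (at 12 h) to 208 (at 72 h) are wider and 0 are absent, with about equal peaks the most frequent at every time.

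Splitting was by short breaks. From 6 to 72 h the domains held 615, 710, 692, 712 and 641 breaks. Their median length was 121, 121, 122.5, 132 and 135 bp at these times, and the longest were 605, 777, 726, 796 and 777 bp. Breaks of at most 300 bp, the length to which the DNA was sheared, made up 92.5%, 91.0%, 93.1%, 90.0% and 88.9% of them. With hypoxia peaks joined over gaps of up to 300 bp, 45, 64, 48, 69 and 70 domains were still split. Most split domains held 2 peaks (397 of 514 at 72 h and 441 of 523 at 6 h), and the most held by a domain was 5. The median of the longest piece left in a split domain was 2043 bp in the 72 h list and 2168 bp in the 6 h list. Of the length lost, 49.1% at 72 h and 47.8% at 6 h was in such inner breaks, and the rest was trimmed from the edges. Some peaks also reached beyond the domains, by any length. They did so at the left edge of 954 domains and the right edge of 941 at 72 h, and of 1004 and 954 at 6 h. Such counts are not given here for other 0 h peaks, so nothing is read from them.

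The share of split domains rose with their width at 0 h, while the number of breaks per length did not. At 72 h, 26.8% of the 728 domains under 3000 bp were split, 33.8% of the 585 from 3000 to under 4000 bp, 38.6% of the 246 from 4000 to under 6000 bp and 56.5% of the 46 of 6000 bp or more. At 6 h the shares were 26.5%, 35.2%, 40.2% and 54.3%. Per Mb of 0 h peak length, the same 4 classes had 115, 120, 116 and 126 breaks at 72 h, and 112, 124, 100.1 and 96.0 at 6 h. All domains together had 113, 130, 127, 131 and 118 breaks per Mb from 6 to 72 h, and the 20317 narrower peaks from 1000 to under 2500 bp had 119, 133, 120, 117 and 111. Per length, breaks in the domains were thus fewer than in these pooled peaks at 6 and 12 h and more at 24, 48 and 72 h. Peaks from 2000 to under 2500 bp alone had 129, 139, 125, 134 and 122 breaks per Mb. Against these the domains had fewer at 6, 12, 48 and 72 h and more at 24 h. On the 2 sides of the threshold, 50 of 206 domains under 2600 bp were split at 72 h and 95.4% of their length was covered, while 68 of 231 peaks from 2400 to under 2500 bp were split, with 94.9% covered. From 6 to 72 h the share split was 24.8%, 30.1%, 27.2%, 30.1% and 24.3% just inside the threshold and 30.7%, 28.6%, 28.6%, 29.4% and 29.4% just outside it, with no constant order.

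**Figure D2:**
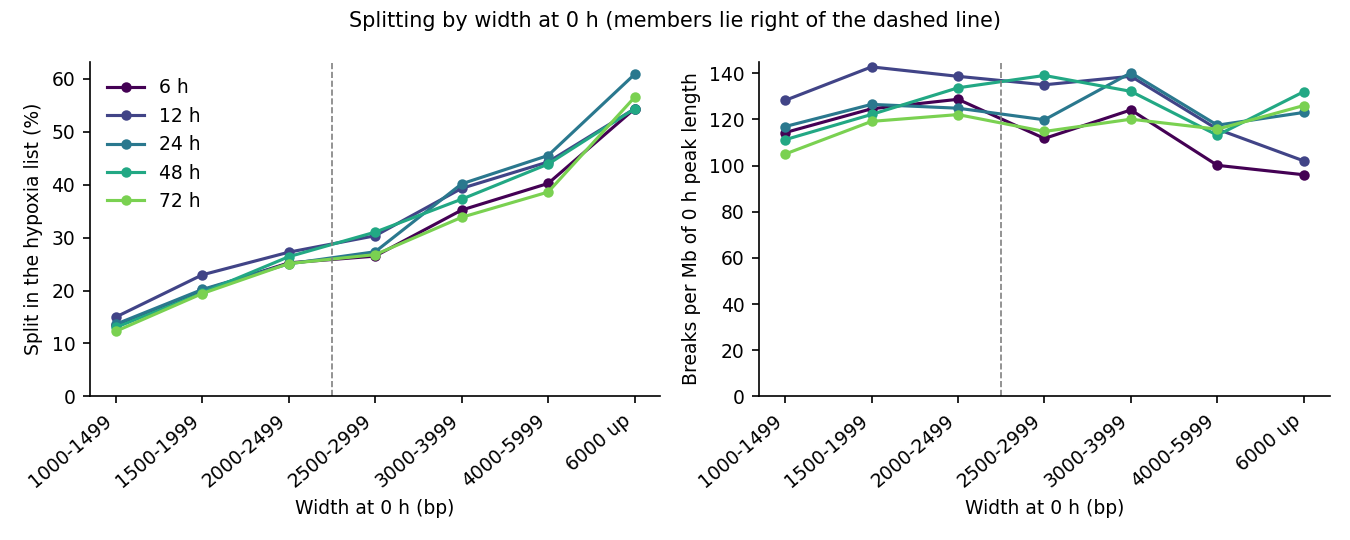
Left, share of 0 h peaks that were split (%) and, right, breaks per Mb of their 0 h length, by width at 0 h (bp) and for each hypoxia list (1 line per time). The share split climbs with width, to between 54.3% and 60.9% in peaks of 6000 bp or more, while breaks per Mb stay between 96.0 and 143 in every class and list.

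Splits recurred in part of the domains. Over the 5 hypoxia lists, 578 domains (36.0%) were split in none, 289 in 1, 229 in 2, 173 in 3, 173 in 4 and 163 (10.2%) in all 5. Such counts are not given here for other 0 h peaks, so they do not show whether the recurrence is particular to the domains. When breaks that overlapped were counted as 1 site, the domains held 1647 break sites, of which 826 (50.2%) appeared in a single list and 120 (7.29%) in all 5. Of the 641 breaks at 72 h, 53.0% overlapped a break of the 48 h list and 38.2% one of the 6 h list, where breaks made up 2.14% of domain length at 48 h and 1.67% at 6 h.

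A peak of 2500 bp or more overlapped 1247, 1192, 1194, 1201 and 1225 domains from 6 to 72 h, or 74.3% to 77.7% of them. Such a peak overlapped 0.969% (at 12 h) to 1.35% (at 72 h) of all autosomal 0 h peaks, and since the domains were selected on width nothing is read from the contrast. In all 5 hypoxia lists this held for 836 domains (52.1%), and in none for 99 (6.17%), with no such count over the lists given for other 0 h peaks. No domain was narrower in more than 3 of the 5 lists, and 1588 were narrower in none. A split domain was never called narrower, however much length it lost, and this count too is not given for other 0 h peaks.

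Nearly all wider domains were joined with peaks already present beside them at 0 h. Of the wider domains, 188 of 188 at 6 h, 144 of 145 at 12 h, 163 of 164 at 24 h, 157 of 162 at 48 h and 206 of 208 at 72 h lay in a peak that also overlapped another 0 h peak. The definition of wider favours this. Among all domains the nearest other 0 h peak lay at a median of 262 bp, and within 1000 bp for 89.3%. A peak wider by 25% or more will therefore mostly reach a neighbour. The same share is not given here for other 0 h peaks. The median number of neighbours taken in was 1, and the most was 5. The wider peaks exceeded the domains by a median of 1728 bp in the 72 h list and 1532 bp in the 6 h list. Of their length outside the domain, 82.9% at 72 h and 86.9% at 6 h was already inside a peak at 0 h. The 24 domains that were wider in all 5 lists had their nearest 0 h neighbour at a median of 91.5 bp, and all 24 within 200 bp. Among the 1185 that were wider in no list this median was 365 bp, with 27.2% within 200 bp. For domains split in all 5 lists and in none, the medians were 255 and 258 bp.

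Broad peaks chosen in each hypoxia list were also followed back to 0 h. They are other peaks, selected on width in longer lists. Of the domains, 32.0% were split at 72 h, while of the 2142 peaks of 2500 bp or more at 72 h, 54.6% (95% Clopper-Pearson interval 52.4 to 56.7%) were split at 0 h. For the other times, with domains first, the shares were 32.6% and 47.1% at 6 h, 36.4% and 43.4% at 12 h, 35.8% and 45.9% at 24 h, and 36.0% and 49.1% at 48 h. Domains were covered over 96.0% of their length at 72 h, and the broad peaks of 72 h over 91.8% of theirs at 0 h. Splitting was thus more frequent from hypoxia back to normoxia than forward, at all 5 times. Between 0 and 72 h the covered length of the whole autosomal lists also differed, at 189 Mb at 72 h and 145 Mb at 0 h, and its part in this was not tested.

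Broad peaks without a domain beneath them numbered 679, 585, 669, 765 and 934 from 6 to 72 h. Of these, 586, 498, 567, 662 and 828 overlapped 2 or more narrower 0 h peaks, and none of the broad hypoxia peaks lacked a 0 h peak entirely. The widest 0 h peak at such sites had a median of 1769 bp for the 72 h list and 1899 bp for the 6 h list. Peaks that joined 2 domains numbered 34, 26, 29, 34 and 32, and no peak joined more than 2.

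The hypoxia lists were also compared with each other, since the rule used none of them. Peaks covered 96.0% of the domain length at 72 h and 96.5% at 6 h. Covered length was longer at 72 h than at 6 h by 25% or more in 4 domains (0.249%), where 16.6% of the 265023 autosomal 0 h peaks with cover at either time passed this limit. It was at most 80% as long in 12 domains (0.748%), against 8.77%. Among the 0 h peaks from 1000 to under 2500 bp these shares were 4.0% and 3.78%. Here and for the summed length below, the shares of all 0 h peaks include peaks covered only at 6 h or only at 72 h. Every domain was covered at both times. Covered length cannot exceed the 0 h width, which leaves well-covered domains little room to gain. The summed length of the peaks overlapping a domain has no such ceiling. It was longer at 72 h than at 6 h by 25% or more in 138 domains (8.60%, against 33% of all) and at most 80% as long in 124 (7.73%, against 13.9%). In sum it was 1.01 times as long at the domains, 1.04 times at peaks from 1000 to under 2500 bp and 1.13 times at all autosomal 0 h peaks. Against 6 h the summed length at the domains was 0.974, 0.986 and 0.993 times as long at 12, 24 and 48 h, and at all autosomal 0 h peaks 0.970, 1.02 and 1.07 times. At peaks from 1000 to under 2500 bp it was 0.977, 0.995 and 1.01 times as long. A hypoxia peak that overlapped several 0 h peaks was counted at each of them. In these lists more domains were shorter by the same limit than longer, with 131 and 78 at 12 h, 128 and 96 at 24 h, and 130 and 109 at 48 h. The ratio at the domains was thus below that at all 0 h peaks at 24, 48 and 72 h but not at 12 h. It was nearer to that at peaks from 1000 to under 2500 bp, and below it at 12, 24, 48 and 72 h. Each is a ratio of 2 libraries with no test.

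The 5 widest domains illustrate the fates. In build hg19 the widest lay on chromosome 22 from 46497568 to 46512326. Its widest overlapping peak measured 17988, 8886, 8838, 8443 and 9908 bp from 6 to 72 h, and at least 97.2% of it was covered at every time. It held 2 peaks in each list but that of 48 h, where it held 3, and its longest break was 60, 215, 179, 128 and 398 bp. At 6 h the peak reached 4230 bp beyond its left edge. The second widest, 10091 bp on chromosome 1 from 7640511 to 7650601, stayed whole. It lay inside a single peak at all 5 times, of 10285, 10900, 10740, 10151 and 11181 bp. A domain of 9221 bp on chromosome 10 from 43577923 to 43587143 held 2 peaks at 6 and 12 h, 3 at 24 and 48 h and 5 at 72 h. Its widest overlapping peak measured 6138, 6274, 5326, 5185 and 3263 bp. The covered share there was 98.1%, 98.6%, 96.2%, 91.5% and 89.5%. A domain of 8875 bp on chromosome 17 from 75314240 to 75323114 was a single peak at 12, 24 and 48 h, of 8885, 9786 and 9879 bp, and held 2 peaks at 6 and 72 h. The fifth, 8708 bp on chromosome 7 from 6203216 to 6211923, held 2 or 3 peaks in every list and was covered over 93.3% to 98.4%. Gene positions in hg19 were not used here, so these domains are given by coordinates.

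**Figure D3:**
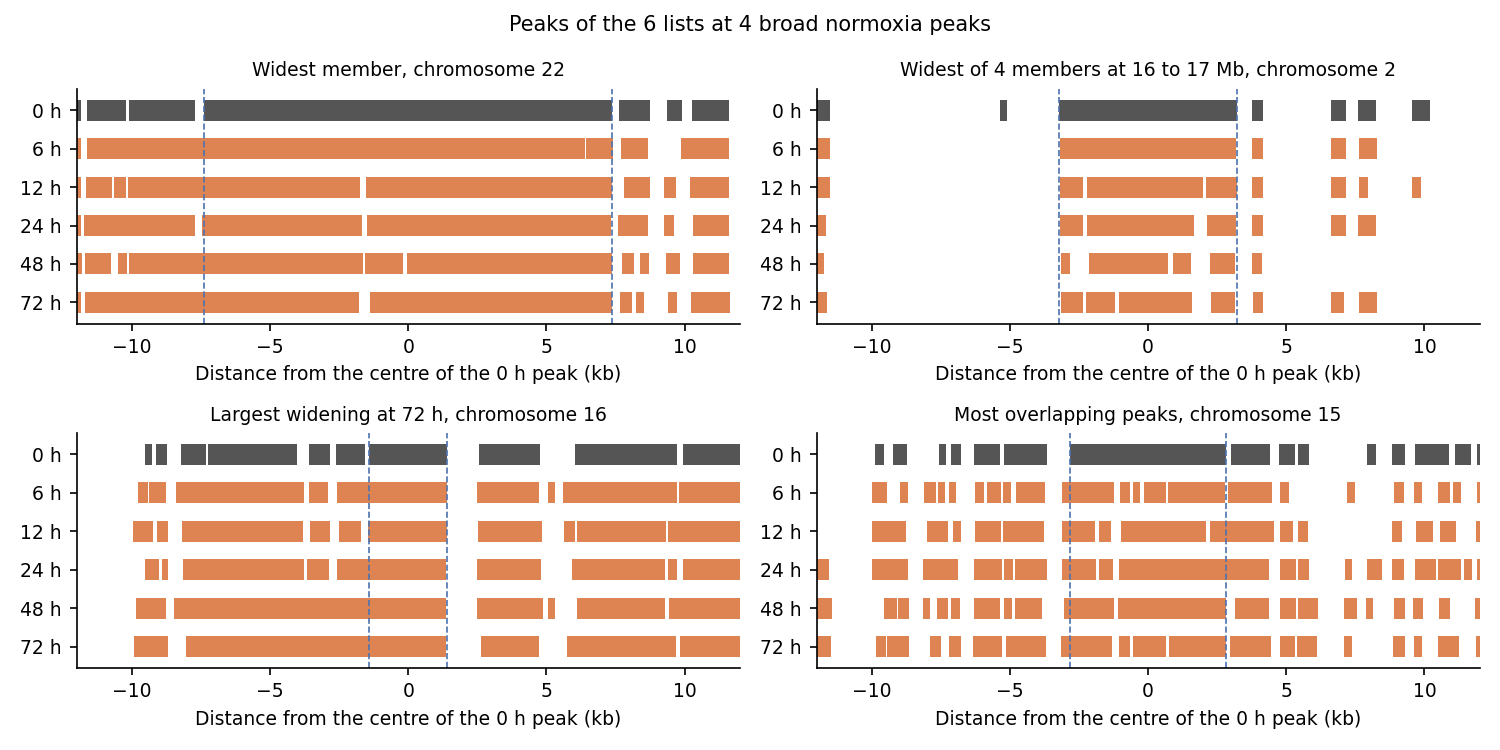
Peaks of the 6 lists (rows, 0 h in grey and hypoxia times in orange) at 4 domains, plotted by distance (kb) from the centre of the 0 h peak, whose edges are dashed. The widest domain keeps at least 97.2% of its length, that of chromosome 2 goes to 4 pieces at 48 and 72 h, that of chromosome 16 is joined to its left neighbours into a peak of 9402 bp at 72 h, and that of chromosome 15 holds 2 to 5 peaks.

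The lowest mean coverage over the 5 hypoxia lists was found in a domain of 3474 bp on chromosome 2 from 129041068 to 129044541. It kept 82.3%, 63.8%, 84.2%, 62.2% and 62.2% of its length from 6 to 72 h. At 12, 48 and 72 h a single peak of 2216, 2161 and 2178 bp remained, and its left edge was shifted by -1248, -1299 and -1314 bp, where a negative shift lies inside the domain. Next was a domain of 2568 bp on chromosome 22 from 49474843 to 49477410, with 89.1%, 75.9%, 83.7%, 50.7% and 63.1%. A domain of 3878 bp on chromosome 6 from 154770308 to 154774185 held 3 peaks in every list and kept 80.1%, 78.5%, 77.9%, 70.5% and 67.5%. The next were domains of 3177 bp on chromosome 2 from 232525504 to 232528680, with a mean of 76.9%, and 3146 bp on chromosome 11 from 64621742 to 64624887, with a mean of 77.5%. The last of these ran the other way in time and was covered over 89.8% at 72 h and 70.3% at 6 h. A mean under 80% was seen in 9 of the 1605 domains, and the median domain had 97.1%.

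At 180 domains (11.2%) each hypoxia list had a single peak that was wider than the domain by any amount. The 5 with the highest ratio of 72 h to 0 h width included 3 on chromosome 16. At the first, from 85656924 to 85659760 (2837 bp), the peak measured 3992, 2855, 3948, 9866 and 9402 bp from 6 to 72 h, 3.31 times its 0 h width at 72 h. The same 48 and 72 h peaks took in the domain from 85651088 to 85654321 (3234 bp, 2.91 times at 72 h), so these 2 are not separate observations. The third on this chromosome, from 85562257 to 85564890 (2634 bp), was wide from the first time on, with 8387, 8377, 8403, 8730 and 8638 bp. A domain of 3861 bp on chromosome 19 from 6233621 to 6237481 lay in peaks of 4488, 5049, 4861, 5021 and 12516 bp, and the last was the widest autosomal peak of the 72 h list. On chromosome 10 a domain of 2571 bp from 81013923 to 81016493 lay in peaks of 4013, 4123, 8060, 4047 and 7631 bp, which were high at 24 and 72 h without order in time.

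The most peaks in sum over the 5 lists were 18, in a domain of 5664 bp on chromosome 15 from 99316203 to 99321866, which held 5, 4, 3, 2 and 4. A domain of 4095 bp on chromosome 2 from 64217745 to 64221839 held 2, 4, 4, 3 and 4, and one of 8515 bp on chromosome 11 from 1982529 to 1991043 held 3, 4, 3, 4 and 3. These last 2 had a sum that 2 further domains shared. In these 3 domains the pieces together covered between 86.3% and 97.2% of the 0 h length at each time.

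Domains lay close to each other along the chromosomes. The median distance from a domain to the nearest other one was 17.8 kb, and 1133 of 1605 (70.6%, 95% Clopper-Pearson interval 68.3 to 72.8%) had another within 100 kb. Of the 20317 peaks from 1000 to under 2500 bp, 38.4% had a domain within that distance, and of all 279337 narrower autosomal 0 h peaks 17.1% did. Linked over gaps of up to 100 kb, the domains formed 273 clusters of 2 or more and 472 single domains. The 74 clusters of 5 or more held 621 domains (38.7%), and the 17 of 10 or more held 264 (16.4%). In 1 Mb bins, 33 bins with 10 or more domains held 29.8% of the domains and 3.65% of all autosomal 0 h peaks.

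Their surroundings were dense in 5-hmC peaks. Within 50 kb of either edge a domain had a median of 39 other 0 h peaks (quartiles 31 and 47), peaks from 1000 to under 2500 bp had 30 and all 0 h peaks had 19. Peaks covered 31.5% of these flanks around the median domain, 17.9% around peaks from 1000 to under 2500 bp and 9.03% around all. Domains were also frequent near the outermost 0 h peaks of chromosomes, which need not lie at the chromosome ends. Of the domains, 674 (42.0%, interval 39.6 to 44.5%) lay within 5 Mb of the first or last 0 h peak of their chromosome, against 22.3% of peaks from 1000 to under 2500 bp and 12.1% of all 0 h peaks. Neighbouring domains share their surroundings, so these intervals cover counting error only and are too narrow.

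Chromosomes differed widely in their number of domains. Chromosome 16 held 14.2 domains per 1000 of its 0 h peaks, chromosome 17 held 13.4, chromosome 19 held 12.5 and chromosome 22 held 11.1. Chromosome 6 held 1.36 per 1000, and chromosome 18 had none among its 3856 peaks. Chromosomes 17, 2, 1 and 16 had the most in number, with 154, 153, 132 and 131. In hypoxia, chromosome 18 had 3, 1, 2, 5 and 5 peaks of 2500 bp or more from 6 to 72 h. Chromosome 17 had 192, 176, 177, 201 and 220, and chromosome 15 ended at 45 as it began, with 50, 49, 55 and 56 between. The covered share of the domains at 72 h lay between 93.2% on chromosome 15 and 97.2% on chromosome 17.

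**Figure D4:**
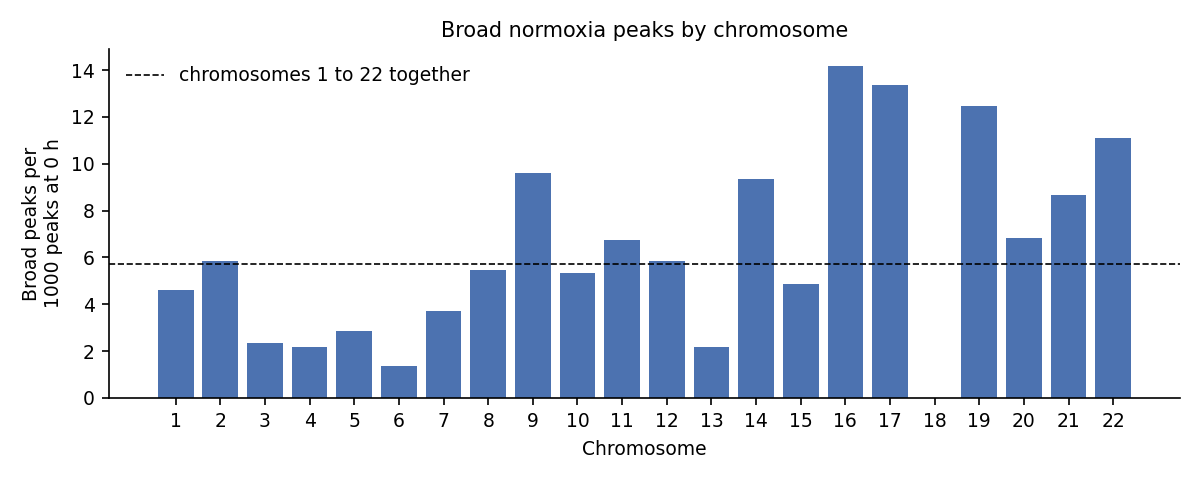
Number of broad 0 h peaks per 1000 0 h peaks (bars) for each of chromosomes 1 to 22, with the value for all of them together dashed. Chromosome 16 is highest at 14.2, and chromosome 18, with 3856 peaks, has none.

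The largest cluster lay on chromosome 16 from 85181734 to 85684585, with 37 domains in 503 kb. Peaks covered 98.4%, 98.1%, 97.5%, 97.5% and 98.0% of its domain length from 6 to 72 h. Between its ends were 45, 47, 41, 44 and 49 peaks of 2500 bp or more at those times, against 37 at 0 h. The second, on chromosome 9 from 136374094 to 136848873, had 21 domains, covered over 97.5% to 99.0%. The third, on chromosome 7 from 1787558 to 2184965, had 20, covered over 97.5% to 99.0%. Chromosome 17 held the next 2, with 19 domains from 78666615 to 79094247 and 18 from 75281023 to 75478533, covered over 96.4% to 98.3% and 97.1% to 98.3%. In these 5 clusters coverage stayed above the 96.0% of all domains at 72 h, and no trend with time was common to them.

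The 74 clusters of 5 or more domains moved little between the hypoxia lists. The difference in covered share between 72 and 6 h had a median of -0.41 percentage points and ranged from -5.82 to 4.14, with 29 clusters more covered at 72 h and 45 less. The lowest value was that of 11 domains on chromosome 2 from 129041068 to 129195311, a cluster that includes the domain with the lowest mean coverage. It was covered over 96.6%, 93.9%, 95.7%, 90.8% and 90.8%, and peaks of 2500 bp or more between its ends numbered 13, 8, 11, 7 and 8, against 11 at 0 h. The next lowest differences were -5.25 points in 6 domains on chromosome 12 from 110167106 to 110212615 and -4.71 in 5 on chromosome 16 from 1486314 to 1590811. After these came a cluster of 17 on chromosome 14 from 100762889 to 101247715, at -4.13. It was covered over 97.8%, 97.7%, 96.8%, 94.2% and 93.7%. Of the 11 domains on chromosome 10 from 43370036 to 43601711, where the domain of 9221 bp lies, 6, 5, 8, 10 and 7 were split, and coverage was 95.4%, 97.1%, 94.1%, 91.0% and 92.5%. In the other direction, the highest value was that of 6 domains on chromosome 1 from 2162261 to 2234434, covered over 94.0%, 98.6%, 97.2%, 96.9% and 98.2%. Next was a cluster of 5 on chromosome 21 from 46675311 to 46781963, covered over 91.6%, 94.6%, 94.0%, 93.9% and 95.4%. The clusters named in this paragraph were chosen after their values were seen.

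The 4 domains on chromosome 2 between 16 and 17 Mb were less covered at 24, 48 and 72 h than at 6 h, all 4 of them, in a stretch whose loss of peaks was already known from these lists. The widest measured 6431 bp at 0 h, from 16120622 to 16127052. It was 1 peak of 6376 bp at 6 h and held 3, 3, 4 and 4 peaks at 12, 24, 48 and 72 h, the widest of 4214, 3874, 2858 and 2642 bp. Its covered share was 99.1%, 96.0%, 89.4%, 73.2% and 82.7%, and its longest break was 701 and 712 bp at 48 and 72 h. The domain from 16573307 to 16576133 (2827 bp) was covered over 98.3%, 98.3%, 94.9%, 75.6% and 75.1%. That from 16232954 to 16235479 (2526 bp) was covered over 99.2%, 98.7%, 96.0%, 82.1% and 82.9%, with a shift of its left edge by -368 bp at 72 h. That from 16403977 to 16406516 (2540 bp) stayed a single peak of 2445, 2446, 2412, 2267 and 2199 bp. Together the 4 were covered over 98.5%, 97.0%, 92.6%, 78.1% and 81.9%, while the other 1601 domains were covered over 96.5%, 96.0%, 96.2%, 95.8% and 96.0%. Ordered from the lowest difference in covered share between 72 and 6 h, they were the 3rd, 18th, 19th and 89th of 1605. The stretch was known for this loss from these same lists, so the order and the contrast are a description and no independent support.

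**Figure D5:**
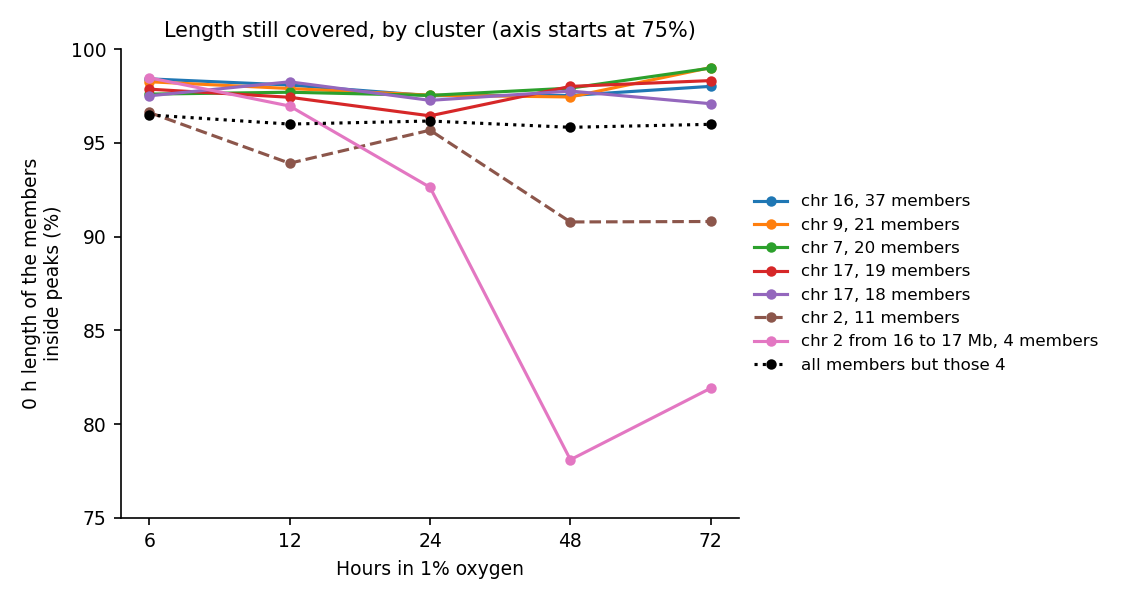
Share of the 0 h length of the domains that lay inside peaks (%, axis from 75%) by hours in 1% oxygen, for the 5 clusters with most domains, the cluster of 11 on chromosome 2, the 4 domains on chromosome 2 from 16 to 17 Mb and all other domains. The 5 large clusters stay between 96.4% and 99.0%, and the 4 domains are at 81.9% at 72 h and 98.5% at 6 h.

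Besides that from 16573307 to 16576133 on chromosome 2, 11 domains were at most 80% as covered at 72 h as at 6 h. The largest difference was at 2972 bp on chromosome 17 from 71819648 to 71822619, which kept 63.0% at 72 h and 93.1% at 6 h. A domain of 3817 bp on chromosome 14 from 100997839 to 101001655, in the cluster of 17, kept 77.7% at 72 h and 99.8% at 6 h. One of 2600 bp on chromosome 1 from 26121352 to 26123951 kept 69.7% at 72 h and 91.9% at 6 h. The 4 domains past the limit in the other direction lay on chromosome 9 (2), chromosome 11 and chromosome 12, and the one with the highest ratio, from 111849330 to 111852032 on chromosome 12, kept 93.9% at 72 h and 72.1% at 6 h. All were named after their values were seen, and each rests on 1 library per time.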

How the data were processed

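The authors deposited 1 peak list per sample, with a chromosome and 2 positions in bp for every peak and nothing on height or confidence. Per the submitters' processing notes, which state no role or order, the tools were BWA 0.7.17, MACS2 and HTSeq with hg19. Peak threshold and control: not given in the sources used here. Printed starts count from 1. The labelled hour and oxygen level define the groups.

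Overlaps of at least 1 bp, covered length and breaks were computed per domain, and the computations were tested on simulated lists. Clusters join domains up to 100 kb apart. Surroundings were counted within 50 kb. Shares have exact Clopper-Pearson intervals, which cover counting error only. No test was made with 1 library per time. The members, lists and rules were chosen with earlier results of these data known. Named domains were the 5 widest, the 5 least covered, the 5 with the highest ratio of 72 h to 0 h width among those with a single, wider peak at all 5 times, the 3 with most peaks and the 5 largest clusters, and others are marked. No genome or gene positions of hg19 were used, so gene overlap, base composition and sequences are not given. Alternatives covered width thresholds, joining, overlap, factors, members left out and the choosing list. Python 3.11.15, NumPy 2.4.6, pandas 2.3.3, SciPy 1.17.1 and Matplotlib 3.10.9 were used.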

Additional observations from a re-analysis of the deposited data

How the results depend on the processing

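Of 53 alternatives, 17 left the value within its interval, or a count within 1.5 times, and 36 moved it. Counts at other width thresholds come from other numbers of domains, so a moved count there need not mean a moved share. With thresholds of 2000 and 3000 bp, 28.5% and 36.4% of domains were split at 72 h, against 32.0% at 2500 bp. The interval of covered length counts base pairs, which are not independent, so even very small changes lie outside it. Those that left out the 4 domains of chromosome 2 from 16 to 17 Mb were chosen after seeing the data. All domains overlapped a 72 h peak under every alternative run. With thresholds of 2000 and 3000 bp (3238 and 877 domains), covered length at 72 h was 95.4% and 96.3%, split domains numbered 924 and 319, wider ones 432 and 117, and domains longer at 72 than at 6 h 15 and 1, shorter ones 45 and 3, and domains with another within 100 kb made up 78.8% and 65.8%. Narrower domains numbered 28 at 2000 bp. With peaks joined over 300 bp, covered length was 97.6%, 70 domains were split, 692 were wider (here only the hypoxia list was joined, which favours wider) and, with the 0 h list joined too and domains chosen anew (4270 regions), 78.4% had another nearby. With peaks of at least 300 bp, covered length was 95.8% and 11 domains were narrower. Without the largest cluster it was 95.9%, and without the 4 domains 96.0%. With factors of 1.1 and 1.5, wider domains numbered 324 and 108, narrower ones 41 and 1, those longer at 72 than at 6 h 51 and 0, and those shorter 102 and 0. Chosen at 6, 12, 24, 48 or 72 h and followed at 0 h, 47.1%, 43.4%, 45.9%, 49.1% and 54.6% were split. With gaps of 50 and 250 kb, 62.9% and 80.2% of domains had another within reach. For none of these was the cause tested. Depth is unknown, so its effect has no value here. No paired analysis was possible because each time has 1 library.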
